A study of Mus musculus with 4 samples.

Results

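The 10 genes described here, *Gap43*, *Gng8*, *Stmn1*, *Stmn2*, *Dpysl3*, *Dpysl5*, *Tubb3*, *Dcx*, *Ncam1*, and *Marcksl1*, are genes that newly formed olfactory receptor neurons (ORNs) express while their axons and dendrites grow. They were chosen as a list of symbols, and a probe belonged to them when the transcript accession of its non-control spot mapped to one of these symbols. This gave 19 of the 56605 probes and 10 of the 45604 genes tested, and every gene of the list was represented. New ORNs arise throughout life from basal cells of the olfactory epithelium. A postmitotic cell first passes through an immature stage, in which it extends an axon toward the olfactory bulb and makes growth cone, microtubule, and adhesion proteins, and then turns to the cilia and odor transduction proteins of the mature ORN. GAP43 is the customary protein marker of the immature stage, and OMP that of the mature stage.

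Septal nasal mucosa of male C57BL/6J mice was compared between young adult mice (8 weeks of age) and aged mice (16 months of age), to learn how gene expression in this tissue differs with age. Each age had 2 one-color arrays, and each array carried the RNA of a pool of 5 mice. The labels name the tissue as olfactory epithelium, whereas the study describes the collected piece as mucosa, which also holds the lamina propria. A further label on silica and lung does not match the sample titles and was not used. The number of mice that the study gives for gene analyses is smaller than separate pools would need, and shared mice are not mentioned. A mouse may thus have been in both pools of its age, and P values measure only the spread between pools, which may be technical. Of the non-control spots, 68.1% and 76.8% were well above background on young adult arrays 1 and 2, and 63.1% and 72.7% on aged arrays 1 and 2. Young adult array 1 and aged array 1 were on 1 slide, and each of the other arrays was on a slide of its own. The sex genes did not match the male label: *Xist* was well above background on all 4 arrays (645 and 612 in the young adult pools, 644 and 637 in the aged pools), and the Y-linked genes *Ddx3y*, *Uty*, *Kdm5d*, and *Eif2s3y* were well above background on 0 arrays. *Omp*, which defines mature ORNs, was bright on every array, with values of 300826 and 286061 on the young adult arrays against 317836 and 332591 on the aged arrays. All 19 probes of the 10 genes were well above background on all 4 arrays, with 0 flagged spots.

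The expression levels of 9 of the 10 genes were lower on both aged arrays than on both young adult arrays, and *Ncam1* was higher on both aged arrays. Of all genes tested, 21.8% were lower and 24.2% higher in this way. The differences of the 10 genes were modest. *Gap43*, *Dpysl3*, and *Stmn1* had the most negative values, with changes of -24.6%, -24%, and -23.4% from the young adult level, and *Dpysl5* and *Dcx* lay closest to 0 among the 9. Values below are normalized intensities of the array signal, the log2 fold change is aged over young adult, and a gene was called when limma gave P under 0.05 and an FDR under 0.25 over all genes. Only *Dpysl3* passed both limits. In a piece of mucosa, fewer immature ORNs and less RNA of these genes per cell cannot be told apart.

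**Figure D1:**
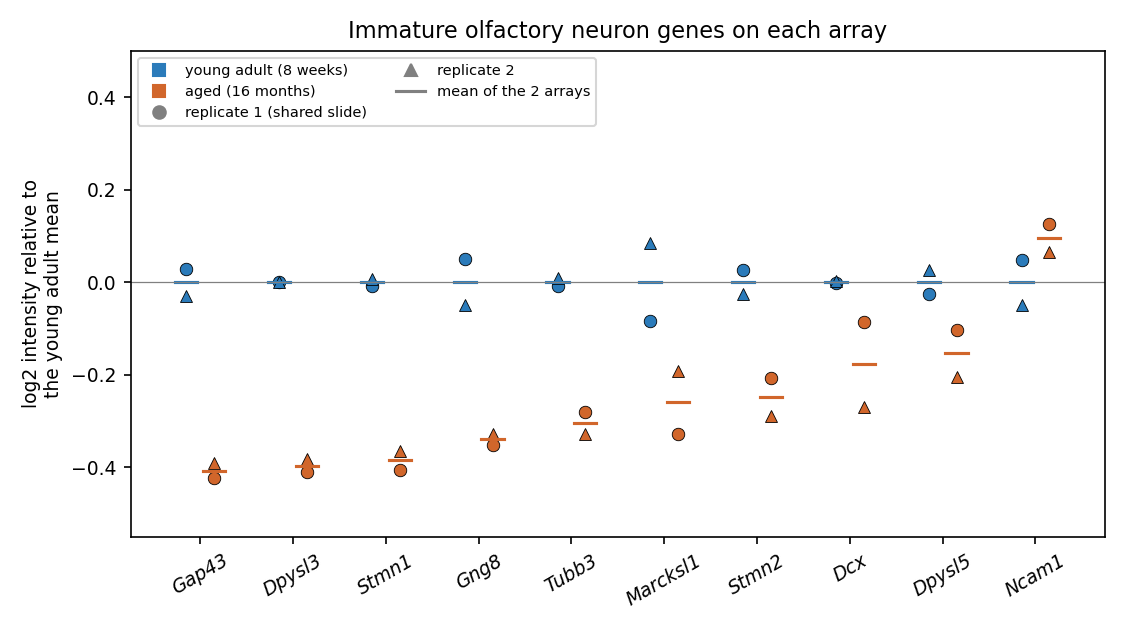
Log2 intensity of each gene on each of the 4 arrays, relative to the mean of the young adult arrays, with genes ordered by their log2 fold change (circles, replicate 1, on the shared slide; triangles, replicate 2; bars, mean of the 2 arrays of an age). Both aged arrays lie below both young adult arrays for 9 genes, from *Gap43* with a mean of -0.41 to *Dpysl5* with -0.15, and above them for *Ncam1* with 0.10. Of all genes tested, 21.8% lie below and 24.2% above in this way.

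*Gap43* encodes a membrane-bound phosphoprotein of the growth cone that binds calmodulin. Its expression level was 8548 and 8210 on the young adult arrays against 6242 and 6391 on the aged arrays. The ages did not overlap, and the gap between them was wider than the spread within either. The means were 8379 ± 239 (SD, n = 2 pools) and 6316 ± 106, and the log2 fold change was -0.41, with a 95% confidence interval of -0.64 to -0.17 in limma. With an FDR of 0.251 in limma, *Gap43* lay just outside the limit, and it passed in 7 of the 15 alternative fits that gave a test. In some of those 15 fits no gene on the array was called. *Marcksl1*, an actin-regulating relative of MARCKS that, like GAP43, binds calmodulin, measured 532 and 598 in young adult mice against 449 and 494 in aged mice. The higher aged array was close to the lower young adult array, and the log2 fold change of -0.26 had a 95% interval that reached 0.07 (limma FDR = 0.458).

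The proteins of the next 4 genes act on microtubules. *Stmn1* encodes stathmin, which binds tubulin dimers and is also known from dividing cells. It measured 22942 and 23187 in young adult mice against 17415 and 17920 in aged mice. Here too both aged arrays were clearly below both young adult arrays, and the log2 fold change was -0.38 (95% interval -0.61 to -0.16, limma FDR = 0.255). *Stmn2*, which encodes the membrane-anchored stathmin SCG10 of growing axons, measured 21654 and 20872 in young adult mice against 18426 and 17396 in aged mice. The ages did not overlap, but the log2 fold change of -0.25 was smaller, and the FDR was 0.379 in limma.

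*Tubb3* encodes the neuronal class of beta-tubulin that neurons begin to make when they leave the cell cycle. It measured 8610 and 8717 on the young adult arrays against 7129 and 6897 on the aged arrays. The 2 arrays of each age were close together and the ages were apart, with a log2 fold change of -0.31 (95% interval -0.53 to -0.08, limma FDR = 0.301). *Dcx* encodes doublecortin, a microtubule-associated protein of migrating and differentiating young neurons. Its values of 771 and 774 in young adult mice hardly differed from each other, while the aged arrays gave 728 and 641. Aged array 1 was thus nearer to the young adult arrays than to aged array 2, and the log2 fold change of -0.18 had an interval from -0.48 to 0.13 (limma FDR = 0.562). It was -0.27 without aged array 1 and -0.09 without aged array 2.

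*Dpysl3* and *Dpysl5* encode collapsin response mediator proteins (CRMP4 and CRMP5), cytosolic proteins that take part in semaphorin signaling and growth cone behavior. *Dpysl3* measured 7719 and 7710 in young adult mice against 5806 and 5915 in aged mice. The young adult arrays were nearly equal, with a mean of 7714 ± 6.69 (SD, n = 2 pools), and both aged arrays lay below them at 5861 ± 77.2. *Dpysl3* fell by 0.40 on the log2 scale with age, with a 95% interval of -0.62 to -0.17 and FDR = 0.247 in limma. Its fold change was under 1.5, so that it did not meet the further limit that the study set for a differentially expressed gene. With 1 array left out, its log2 fold change ranged from -0.41 to -0.38. Those fits cannot show how the call depends on an array, since no gene at all passed in them. *Dpysl3* missed the FDR limit in limma with 75th percentile scaling (0.277), the processed intensity with that scaling (0.27), and the most intense probe (0.252). With the replicate number as a block its FDR was 0.433 in limma, and there too no gene passed. *Dpysl3*, like *Gap43*, passed in 7 of 15 alternative fits, a count that includes the fits in which no gene passed. *Dpysl5* measured 928 and 963 in young adult mice against 880 and 820 in aged mice. This was the smallest difference among the 9 lower genes, with a log2 fold change of -0.15 whose interval of -0.41 to 0.10 included 0 (limma FDR = 0.55).

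*Gng8* encodes a gamma subunit of heterotrimeric G proteins found in immature ORNs and in vomeronasal neurons, where mature ORNs instead use GNG13. It measured 3584 and 3346 in young adult mice against 2715 and 2758 in aged mice. The lower young adult array was still above both aged arrays, and the log2 fold change was -0.34 (95% interval -0.59 to -0.09, limma FDR = 0.297). *Ncam1* encodes a cell adhesion molecule of axons, which ORNs keep after they mature and which ensheathing and Schwann cells also make. It measured 5045 and 4716 in young adult mice against 5321 and 5103 in aged mice. The aged arrays were higher, but aged array 2 exceeded young adult array 1 by little, and the log2 fold change of 0.10 had an interval from -0.16 to 0.35 (limma FDR = 0.688). It ranged from 0.05 without young adult array 2 to 0.14 without young adult array 1.

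**Figure D2:**
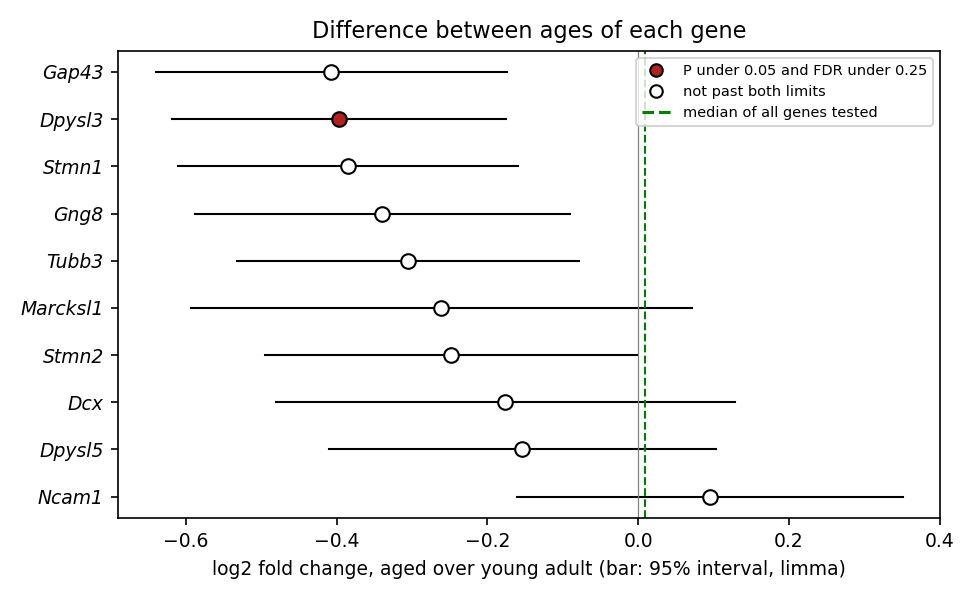
Log2 fold change of each gene, aged over young adult, with its 95% confidence interval from limma (2 pools of each age); the dashed line is the median of all genes tested, 0.01. The filled point, *Dpysl3*, passed both limits; the intervals of *Gap43*, *Dpysl3*, *Stmn1*, *Gng8*, *Tubb3*, and *Stmn2* lie below 0, and that of *Stmn2* ends at -0.001.

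By counts, 1 of the 10 genes was called lower and 0 were called higher, against 2.33% and 1.65% of all genes tested. With P under 0.05 and no adjustment, 6 of the 10 were lower in limma, against 7.08% of all genes. The arrays of the ages did not overlap for 9 of the 10 in the lower direction and for 1 in the higher direction, against 21.8% and 24.2% of all genes. With the added limits on mean level and fold, 0 of the 10 counted as downregulated, against 1.15% of all genes. Among the 14410 genes at least as bright as *Marcksl1*, the dimmest of the 10 with a mean of 518, 3.21% were called lower, 8.24% were lower with unadjusted P under 0.05, and 27.2% did not overlap in the lower direction. The median log2 fold change of the 10 genes was -0.28, beside 0.01 for all genes and 0.02 for the genes at least as bright, of which 45.4% were below 0. The genes were chosen with earlier results in view, and these counts are a description of them. The number called among the 10 ranged from 0 to 7 over the alternative settings with a test. With any 1 array left out, 0 of the 10 genes and 0 of all genes were called, where the full set gave 1817 genes. In those 4 fits limma gave unadjusted P under 0.05 for 3 of the 10 without young adult array 1, 3 without young adult array 2, 0 without aged array 1, and 2 without aged array 2, and for 3288 to 5317 of all genes.

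Averaged over the 10 genes, the log2 level relative to the young adult mean was 0.002 and -0.002 on the young adult arrays against -0.25 and -0.27 on the aged arrays. Within the shared slide, where both ages were hybridized, the log2 difference of aged from young adult was -0.45 for *Gap43*, -0.41 for *Dpysl3*, -0.40 for *Gng8*, and -0.40 for *Stmn1*. Between the other arrays, the same genes differed by -0.36, -0.38, -0.28, and -0.37, so that their direction was the same in both pairs. *Tubb3* (-0.27 and -0.34), *Marcksl1* (-0.24 and -0.28), and *Stmn2* (-0.23 and -0.26) were likewise lower within the slide and between the other arrays. *Dcx* and *Dpysl5* were the genes with the least even pairs, at -0.08 within the slide for both and at -0.27 and -0.23 between the other arrays. *Ncam1* was 0.08 higher within the slide and 0.11 higher between the other arrays. A single pair of arrays gives no test.

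Of the 19 probes, 16 had a lower mean in aged mice and 3 a higher mean; 12 were lower on both aged arrays than on both young adult arrays, 3 were higher on both, and 4 overlapped. Of the 56593 probes with a value on every array, 22% were lower on both aged arrays and 24.3% were higher on both, and of the 33407 at least as bright as the dimmest of the 19, 26.1% and 30.9%. *Gap43*, *Gng8*, *Stmn2*, and *Tubb3* each had a single probe. The 3 probes of *Dpysl3* differed between ages by -0.46, -0.35, and -0.38 on the log2 scale, and both *Stmn1* probes were lower, by -0.33 and -0.44. The called gene therefore did not depend on one of its probes for its direction. The brighter *Dcx* probe measured 2881 and 3079 in young adult mice against 2572 and 2323 in aged mice, a log2 difference of -0.29. The dimmer *Dcx* probe measured 206 and 194 in young adult mice against 206 and 177 in aged mice, a log2 difference of -0.07 with overlapping ages. The averaged value of *Dcx* thus lies between a probe with separate ages and one without. The *Dpysl5* probes, one dim and one bright, were close to each other at -0.17 and -0.14, and those of *Marcksl1* at -0.22 and -0.30.

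*Ncam1* was the only one of the 10 genes whose probes disagreed in sign. Its brightest probe measured 30266 and 28086 in young adult mice against 32725 and 32807 in aged mice, and the second brightest 19982 and 18915 against 22081 and 21350. Both lay higher on the aged arrays, by 0.17 and 0.16 on the log2 scale, and both are assigned to the same transcript. The other pair of probes is assigned to another transcript of the gene and was dimmer. One of them measured 923 and 910 in young adult mice against 1028 and 994 in aged mice, a log2 difference of 0.14. The other measured 1161 and 1024 in young adult mice against 1079 and 974 in aged mice, and at -0.09 with overlapping ages it was the only *Ncam1* probe with a lower aged mean. The *Ncam1* probes were not tested one by one, except for the brightest, in the alternative fit on the most intense probe of each gene. There its log2 fold change was 0.17 (limma FDR = 0.507).

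**Figure D3:**
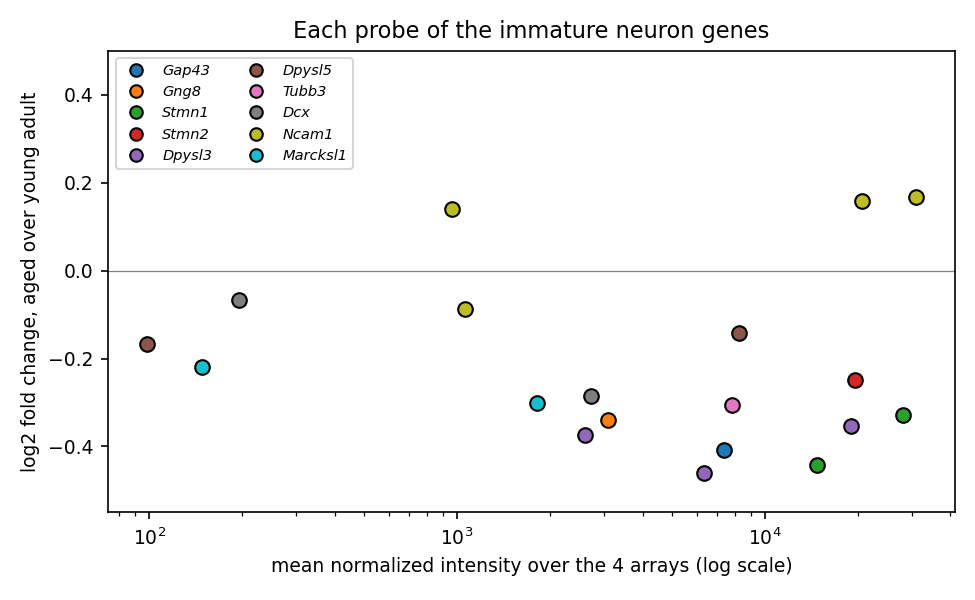
Log2 fold change of each of the 19 probes, aged over young adult, against its mean normalized intensity over the 4 arrays on a log scale. Probes of all genes but *Ncam1* lie below 0, from -0.46 (*Dpysl3*) to -0.07 (the dimmer *Dcx* probe), and 3 of the 4 *Ncam1* probes lie above 0 at 0.14 to 0.17.

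For some of these genes, the sequence upstream of the start is shown. RefSeq promoter entries (GRCm38.p6) were used for 5 of the 10 genes, *Gng8*, *Dpysl5*, *Tubb3*, *Dcx*, and *Marcksl1*, and not for *Dpysl3*, the called gene, or for *Gap43*, *Stmn1*, *Stmn2*, and *Ncam1*. Each window is the 200 bases from position -250 to position -51 relative to the annotated start. Those of *Gng8* (chr7:16891536-16891735), *Tubb3* (chr8:123411303-123411502), and *Marcksl1* (chr4:129513331-129513530), all on the plus strand and written 5′ to 3′, are given as examples with and without P under 0.05, with E-boxes (CANNTG) and GC boxes (GGGCGG, searched on both strands) in capitals.
Gng8: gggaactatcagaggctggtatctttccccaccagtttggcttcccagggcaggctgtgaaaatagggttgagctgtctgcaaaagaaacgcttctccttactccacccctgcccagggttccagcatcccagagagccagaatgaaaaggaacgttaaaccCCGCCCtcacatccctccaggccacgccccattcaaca
Tubb3: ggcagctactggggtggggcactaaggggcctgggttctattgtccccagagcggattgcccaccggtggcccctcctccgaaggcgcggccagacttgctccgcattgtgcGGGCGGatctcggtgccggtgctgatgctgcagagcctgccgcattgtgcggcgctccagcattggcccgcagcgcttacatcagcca
Marcksl1: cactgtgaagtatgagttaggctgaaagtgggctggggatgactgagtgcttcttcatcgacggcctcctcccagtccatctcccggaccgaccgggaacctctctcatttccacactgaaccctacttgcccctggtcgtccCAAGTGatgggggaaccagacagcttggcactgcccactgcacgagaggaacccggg
A GC box, the letters bound by SP1, was in the windows of *Gng8* (on the minus strand) and *Tubb3*, and in 24.5% of the 27018 windows of all genes. An E-box, the letters that basic helix-loop-helix factors such as NEUROG1 and NHLH1 bind, was in the windows of *Marcksl1* and *Dpysl5*, and in 58.9% of all windows. No E-box overlapped a GC box in these windows. The homeodomain core TAATTA was in 0 of the 5 windows and in 4.25% of all windows. The TATA core (TATAAA, both strands) was in the *Dcx* window and in 9.48% of all windows. A match describes letters in the window, and no motif was common to all 5 genes.

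A list of relatives of these genes holds other stathmins, CRMPs, tubulins, doublecortin-like kinases, adhesion molecules, and G protein gamma subunits, together with *Marcks*, the growth cone gene *Basp1*, and the microtubule gene *Map1b*, which is of another family. Of 22 such genes measured, 15 were lower and 7 higher, 1 was called lower and 0 were called higher, and the median log2 fold change was -0.07, beside -0.28 for the 10 genes. *Gng3*, a neuronal gamma subunit related to *Gng8*, was the called relative and fell by 0.74 on the log2 scale, from 441 and 457 in young adult mice to 247 and 292 in aged mice (limma FDR = 0.225). *Gng13*, the gamma subunit of mature ORNs and the relative with the brightest mean signal over the 4 arrays (*Tuba1a* in young adult mice), had a log2 fold change of 0.10 (limma FDR = 0.638), where that of *Gng8* was -0.34. Each gene was tested on its own, and the difference between *Gng8* and *Gng13* was not tested.

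The 5 genes whose pattern over the 4 arrays was most like that of *Gap43* were *Arhgap24*, *Slfn2*, *Hcst*, *Marcks*, and *Tent5b*, at root mean square distances of 0.0045 to 0.0105 on the log2 scale. *Marcks* encodes the relative of the *Marcksl1* product and had a log2 fold change of -0.39, beside -0.41 for *Gap43*. Likeness over 4 arrays was not limited to these 5 genes: 288 of 15469 candidate genes lay within 0.05 of *Gap43*, a wider limit than these distances.

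A list of 20 other genes linked to immature ORNs did not share the direction of the 10 genes. Of these, 7 were lower and 13 higher, with a median log2 fold change of 0.04 that was -0.006 without aged array 1. *Dbn1*, which encodes the actin-binding protein drebrin, fell by 0.42 on the log2 scale (limma FDR = 0.242), similar in size to *Gap43* and *Dpysl3*. *Plxna3*, a semaphorin receptor subunit, rose by 0.44, from 2669 and 2793 to 3736 and 3673 (limma FDR = 0.24). *Elavl3*, an RNA-binding protein gene of neurons with the brightest signal in the list, measured 21301 and 19149 in young adult mice against 22347 and 19410 in aged mice, and its ages overlapped. Genes linked to the immature stage thus lay on both sides of 0.

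Markers of mature ORNs were on the other side of 0. Of 18 genes, 17 were higher and 1 lower, with a median log2 fold change of 0.20, and 2 were called higher: *Kirrel2*, an adhesion molecule that sorts ORN axons, rose by 1.11 (limma FDR = 0.178), and *Stoml3*, a stomatin of ORN cilia, rose by 0.43 (limma FDR = 0.243). *Omp*, the brightest of them, had a log2 fold change of 0.15 (limma FDR = 0.549). By staining, the study counted fewer OMP-positive and fewer GAP43-positive cells in the aged olfactory epithelium. Those are cell counts by protein, and the values here are RNA levels in mucosa. Relative to *Omp* on the same arrays, the log2 change was -0.56 for *Gap43*, -0.55 for *Dpysl3*, -0.53 for *Stmn1*, -0.49 for *Gng8*, and -0.45 for *Tubb3*, and *Ncam1* was nearest to *Omp* at -0.05. The mean log2 level of the 10 genes minus that of the mature markers, set to the young adult mean, was -0.005 and 0.005 on the young adult arrays against -0.51 and -0.50 on the aged arrays. This ratio within an array shows that the lists differed unequally between ages, and does not show which of them changed.

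**Figure D4:**
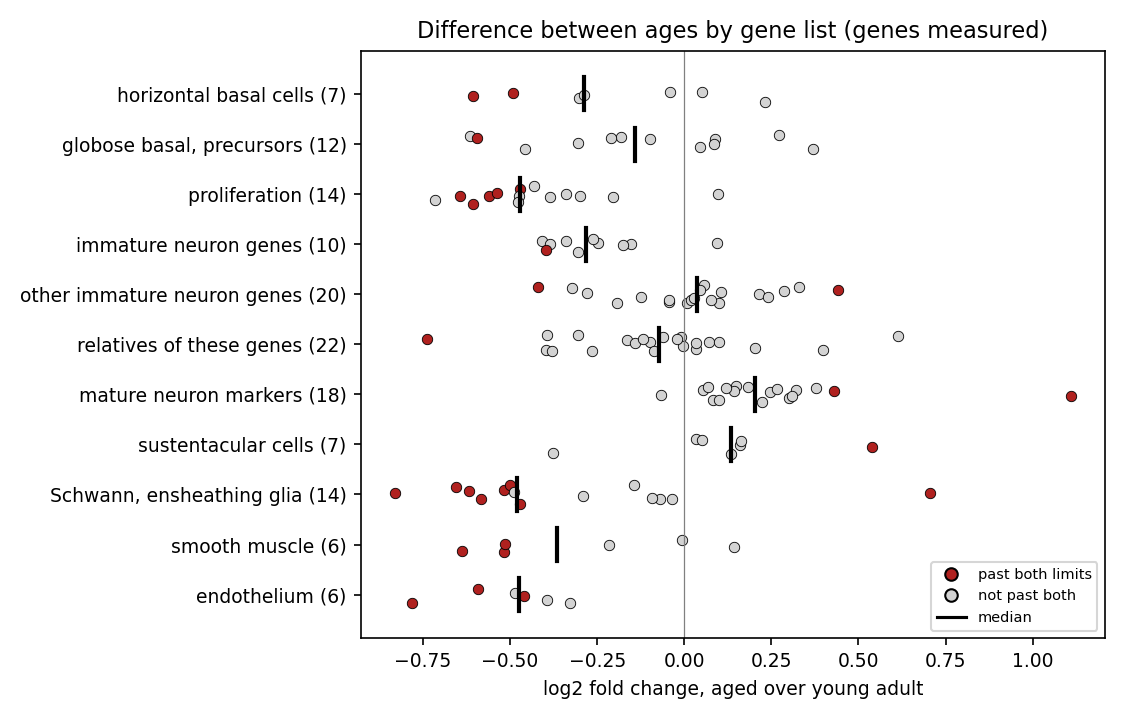
Log2 fold change, aged over young adult, of each gene measured in 11 lists, with the number of genes in parentheses (red, P under 0.05 and FDR under 0.25 in limma; grey, not past both; black bar, median of the list). The 10 immature ORN genes have a median of -0.28, the other immature ORN genes one of 0.04 (-0.006 without aged array 1), and the mature ORN markers one of 0.20, while *Gng13* stands both among the relatives and among the mature markers.

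The stages before the immature ORN were also measured. Of 12 genes of globose basal cells and neuronal precursors, 7 were lower and 5 higher, with a median log2 fold change of -0.14. *Kit*, a receptor tyrosine kinase of globose basal cells, was called and fell by 0.59 on the log2 scale (limma FDR = 0.216), and *Lhx2*, a homeodomain gene with the brightest signal of the list, had a log2 fold change of 0.08. Among the defining markers, *Neurog1* measured 112 and 154 in young adult mice against 108 and 104 in aged mice, and *Neurod1* 649 and 713 against 753 and 694, and neither passed the limits. Of 14 proliferation genes, 13 were lower and 5 of these were called, among them *Top2a*, *Birc5*, and *Mki67*, which fell with log2 fold changes of -0.61, -0.64, and -0.56, and the median was -0.47. *Stmn1*, known from dividing cells as well as from neurons, was thus lower with the proliferation genes as well as with *Gap43*. Summed over the proliferation list, with *Pcna* the brightest, the level was 12931 and 13305 on the young adult arrays against 11665 and 11783 on the aged arrays. *Pcna* was the only higher gene of the list (log2 fold change 0.10, limma FDR = 0.662), and without it the sum was 6693 and 6750 against 4798 and 4985.

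Cells of the lamina propria contribute RNA to the same arrays, and some of the 10 genes are not limited to neurons: *Gap43* and *Ncam1* are also known from glia of peripheral nerve. Of 14 genes of Schwann cells and olfactory ensheathing glia, 13 were lower and 1 higher, 7 were called lower (among them *Prx* and *Npy*, with log2 fold changes of -0.65 and -0.58), and *Cdh19* was called higher, at 0.71. Their median was -0.48, and their summed level, with *Fabp7* the brightest, was 41387 and 42269 on the young adult arrays against 29413 and 30875 on the aged arrays. Lower glial levels stood beside the lower level of *Gap43* but beside a higher mean of *Ncam1*. Of 9 fibroblast genes, 8 were lower and 5 were called, with a median of -0.70, *Dcn* the brightest over the 4 arrays (*Col1a2* in young adult mice), and sums of 253961 and 229524 against 129870 and 122285. *Col3a1*, *Col1a1*, and *Col1a2* had the smallest P and fell, with log2 fold changes of -1.97, -1.98, and -1.52. All markers of the glial and fibroblast lists were well above background on at least 1 array. The part of proliferating cells, glia, and fibroblasts in the lower levels of the 10 genes was not tested.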

How the data were processed

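RNA of 4 pools was labelled with Cy3 and hybridized to 8 × 60K one-color arrays by the authors, whose scanner software was Feature Extraction 11.0.1.1. The deposited values are, for each of 62976 spots, the median intensity of the spot, that of its local background, and a processed intensity. They carry quality flags and were not normalized across arrays. A table of the whole series held the same processed intensity at all spots, within a relative tolerance of 1e-06. The mean spot signal was not used here, and the median took its place.

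Work was done in R 4.3.3 with limma 3.58.1, beginning with normexp background correction at an offset of 0. Control spots and spots with outlier flags were left out, the spots of a probe were averaged, and log2 values were quantile normalized. The probes of a gene were averaged, and 12 genes without a value on every array were left out. Accessions were matched to RefSeq gene names (GRCm38.p6) for 32994 of 56605 probes (58.3%), and the others kept the array's identifier.

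Ages were compared with limma (lmFit, eBayes, no covariates) on all 4 arrays, with Benjamini-Hochberg FDR over 45604 genes. The limits (P under 0.05, FDR under 0.25, and for differentially expressed genes a mean of at least 100 and a fold change of at least 1.5) follow the study's methods. The smallest P that an exact two-sided permutation test allows with 2 pools of each age is 0.333. The calls rest on limma's pooled spread (2 residual and 1.38 prior degrees of freedom), and the number of arrays limits the precision. On simulated data the fit missed changes about as small as those of the members and, at a larger fold, also called unchanged genes.

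The members and the lists were chosen with earlier results of these data known. Named genes are all 10 members, and of each other list the gene with the brightest signal, the called genes (at most 3 in each direction by smallest P), and the defining markers *Neurog1*, *Neurod1*, and *Omp*. Some genes that this rule names are not reported here. Member probes that disagreed in sign were given one by one. Likeness to *Gap43* was the root mean square distance of centered log2 values over genes with a symbol and a mean of at least 100. Alternatives were normexp offsets of 16 and 50 or no correction, 75th percentile scaling, the processed intensity with either normalization, no dim probes, no removal of flagged spots, using the most intense probe of a gene, eBayes with an intensity trend, a block for replicate number, the shared slide alone, and each array left out. The histology and the qRT-PCR were not analysed here.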

Additional observations from a re-analysis of the deposited data

How the results depend on the processing

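In all 16 alternatives the 9 lower genes stayed lower, and *Ncam1* stayed higher (0.05 to 0.17). The call of *Dpysl3* was lost with 75th percentile scaling (FDR = 0.277 in limma), the processed intensity with that scaling (0.27), and the most intense probe (0.252). It was also lost with the replicate block (0.433) and with each array left out, where no gene at all passed. The smallest FDR of *Dpysl3* in limma was 0.00401, with an intensity trend. The number of the 10 genes called was 6 with an offset of 50, 4 with an offset of 16, 5 without background correction, 5 with the processed intensity quantile normalized, 6 without dim probes, 7 with an intensity trend, and 0 with 75th percentile scaling of either intensity, where limma gave unadjusted P under 0.05 for 6 genes (5 from the processed intensity). The numbers over all genes were 4582, 2989, 4027, 4372, 7151, and 7130 in the first 6 of these, and 1410 with 75th percentile scaling (1506 from the processed intensity), beside 1817 with the settings of the report. The cause was not tested. The median over the 10 genes was -0.25 with the processed intensity scaled to the 75th percentile and -0.27 when it was quantile normalized, -0.27 with 75th percentile scaling, -0.30 with the most intense probe, and -0.26 within the shared slide.

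With the replicate number as a block, limma called 0 of the 10 genes and 0 of all genes (4 and 5197 at unadjusted P under 0.05). Deviations of same-numbered arrays correlated at -0.08 over all genes and 0.08 over genes with a mean of at least 100. The replicate 1 arrays share a slide, the replicate 2 arrays do not, and the labels give no other link between arrays of the same number. With each array left out, 0 of the 10 and 0 of all genes were called, 3288 to 5317 genes had unadjusted P under 0.05 in limma, and the median ranged from -0.31 to -0.29; fewer arrays were fitted, and the lone array was assumed to vary like the other age. Slide as a random block was not run, since no correlation could be estimated for any gene. Signal over background was ample for the 10 genes, but the dimmer probes of *Dpysl5*, *Dcx*, and *Marcksl1* overlapped between ages.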

Other observations

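Other markers of the mucosa also had lower medians. Of 7 horizontal basal cell genes, 5 were lower and 2 of these were called: *Itga6*, an integrin chain, and *Krt5*, a keratin with the brightest signal of the list, fell with log2 fold changes of -0.61 and -0.49 (limma FDR = 0.209 and 0.216). The median was -0.29 (-0.29 to -0.12 over the alternatives), and the summed level was 35522 and 35417 in young adult mice against 29212 and 28595 in aged mice. Of 6 smooth muscle genes, 5 were lower and 3 were called (*Myh11*, *Myl9*, and *Cnn1*, at log2 fold changes of -0.64, -0.51, and -0.52), with a median of -0.37, *Myl9* the brightest, and sums of 114002 and 115670 against 90638 and 90145. Of 6 endothelial genes, all 6 were lower and 3 were called (*Emcn*, *Kdr*, and *Cldn5*, at -0.78, -0.59, and -0.46), with a median of -0.47, *Cldn5* the brightest, and sums of 11857 and 11699 against 8337 and 8155. These lists were set beside the 10 immature ORN genes in the plot of gene lists, and their part in the lower levels of those genes was not tested.

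Markers of sustentacular cells, the supporting cells of the olfactory epithelium, lay mostly above 0: of 7 genes, 6 were higher and 1 lower, with a median log2 fold change of 0.13 (0.08 to 0.18 over the alternatives). *Cyp1a2*, a cytochrome P450, was called and rose by 0.54 (limma FDR = 0.209), and *Cyp2a5*, with the brightest signal, measured 317851 and 332582 in young adult mice against 341668 and 323665 in aged mice. Of 7 vomeronasal organ genes, 5 were matched to probes, 2 were lower and 3 higher, and 0 were called (2 had unadjusted P under 0.05 in limma). *Gnai2*, the brightest of them, had a log2 fold change of -0.34, and the median of the list, 0.09, turned to -0.03 with the most intense probe of each gene.

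Of 9 pituitary genes, 7 were higher and 2 lower, with a median of 0.27 (0.19 to 0.84 over the alternatives), and 3 were well above background on 0 arrays. *Prl*, the brightest over the 4 arrays (*Lhb* in young adult mice), rose by 4.96 on the log2 scale, from 282 and 238 to 8155 and 7969 (limma FDR = 0.102). *Gh* was not well above background in young adult mice (37.3 and 37.1) and measured 326 and 336 in aged mice. Its log2 fold change was 3.15 (95% interval 2.93 to 3.38, limma FDR = 0.102). Since its young adult signal was not well above background, the size of this difference is uncertain. The summed level of the list was 1254 and 1325 on the young adult arrays against 9882 and 9358 on the aged arrays, and without *Prl* it was 972 and 1088 against 1727 and 1389. Their part in the levels of the 10 immature ORN genes was not tested.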
